A study of Homo sapiens with 4 samples.

Results

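The genes described are the ligands, receptors and secreted antagonists of Wnt signalling, with the enzymes that make or remove them. They were chosen by name: 43 gene symbols were looked for among the 60617 genes of the deposited tables, and all 43 were found. They comprise 16 WNT ligands, 10 frizzled receptors, 5 co-receptors, 8 secreted antagonists, 2 ubiquitin ligases that remove frizzleds from the cell surface and 2 genes needed to secrete the ligands. Poly-A RNA was sequenced from spheres of U87MG, an established human glioblastoma line. The untreated group and the abemaciclib group held 2 libraries each, all from the same line. Both were grown in DMEM/F12 with EGF and bFGF (20 ng/ml of each), N2 and B27 (2%), and both were labelled day 14. Abemaciclib inhibits the cell cycle kinases CDK4 and CDK6. Its dose is not given in the sources used here, nor is whether the untreated spheres received a vehicle. The series title names the kinase GSK3b and the Wnt pathway transcription factor TCF7L2 as points where the drug acts, so the upstream part of that pathway was examined in the same libraries.

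Wnt proteins are secreted lipid-modified ligands. The enzyme PORCN attaches the lipid, and the carrier WLS takes the ligand to the cell surface. There a Wnt binds a frizzled receptor together with LRP5 or LRP6, which stabilises beta-catenin, or together with ROR1, ROR2 or RYK, which acts without it. Secreted SFRP proteins, FRZB and WIF1 bind the ligands, DKK proteins such as DKK1 block LRP5 and LRP6, and the ligases RNF43 and ZNRF3 take frizzleds off the surface. In glioblastoma the pathway is known for its links to invasion and to stem-like growth, and WNT5A is known as a ligand that acts largely without beta-catenin.

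The libraries held 23684260 to 33418075 expected counts, so that 3 counts corresponded to 0.0898 to 0.127 CPM by these totals. CPM are the counts scaled to a common library size, and the values below also carry the TMM scaling described under processing. Whether replicates came from separate cultures is not labelled, so the p-values below carry the spread of these libraries alone, possibly a technical one. Mitochondrially encoded genes took 4.27% and 4.66% of the untreated counts and 11.8% and 11.7% of the abemaciclib counts, and their part in the results below was not tested beyond the scaling without them given in the closing section. The 7 glioma and neural stem markers summed to 7702 and 7117 CPM untreated and 4894 and 4948 CPM after the drug. Nearly all of that sum was VIM (6250 and 5679 CPM, then 4330 and 4407 CPM) and CD44 (1352 and 1331 CPM, then 490 and 469 CPM). Of the 6 stem markers tested, VIM, CD44, NES, OLIG2 and PROM1 were lower. SOX2 was higher, from 1 and 2 counts to 11 and 12 counts, while GFAP was at 0.166 to 0.295 CPM. Levels of SOX2, PROM1 and PTPRC were low enough that each passed the filter through 1 group only. Of 5 endothelial markers 2 had fewer than 10 counts in all, and the list summed to 18.0 and 20.0 CPM untreated and 11.8 and 11.99 CPM after the drug. That sum followed PECAM1, which fell from 9.78 CPM in each untreated library to 1.37 and 0.915 CPM, whereas VWF rose by 0.40 and TEK differed by 0.02 on the log2 scale. Of 6 leukocyte and microglial markers 4 had fewer than 10 counts, AIF1 among them at 0 in every library. The list summed to 11.1 and 11.8 CPM untreated and 6.69 and 5.87 CPM after the drug, nearly all of it CSF1R, which fell by 1.02 on the log2 scale, whereas PTPRC rose from 4 and 3 counts to 18 and 14 counts. The 4 epithelial markers summed to 18.9 and 17.4 CPM and then 9.93 and 9.77 CPM; KRT8 fell, EPCAM rose by 1.17 on the log2 scale, and CDH1 had fewer than 10 counts. The 4 neuronal markers summed to 49.8 and 51.5 CPM untreated and 64.6 and 60.2 CPM after the drug, with SNAP25 higher and SYT1 and SYP lower. The part of these markers in the results was not tested.

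The promoter windows below were chosen because they belong to the member that rose furthest, the antagonist DKK1, and to the ligand with the most counts, WNT5A, which fell. Each holds the 250 bases before a RefSeq transcript start (build GRCh38.p14), written 5′ to 3′ on the gene's strand. The windows are chr10:52314031-52314280 (plus strand) for DKK1 and chr3:55481399-55481648 (minus strand) for WNT5A. Capitals mark matches to the core that TCF/LEF factors bind, searched on both strands as the letters AACAAAG, as the letters ATCAAAG, as the letters TACAAAG and as the letters TTCAAAG.
DKK1: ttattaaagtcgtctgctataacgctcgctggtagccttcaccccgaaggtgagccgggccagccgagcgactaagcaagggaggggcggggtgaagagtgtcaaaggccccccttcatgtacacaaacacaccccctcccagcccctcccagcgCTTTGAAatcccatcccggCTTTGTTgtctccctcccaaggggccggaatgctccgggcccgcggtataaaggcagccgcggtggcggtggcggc
WNT5A: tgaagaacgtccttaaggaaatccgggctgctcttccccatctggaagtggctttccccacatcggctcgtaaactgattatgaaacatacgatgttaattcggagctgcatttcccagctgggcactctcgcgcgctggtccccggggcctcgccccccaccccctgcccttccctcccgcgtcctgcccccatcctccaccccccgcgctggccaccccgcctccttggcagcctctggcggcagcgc
The DKK1 window held 2 matches, CTTTGAA with its first base 95 bases before the start and CTTTGTT with its first base 76 bases before it, and these did not overlap. The whole DKK1 window lies within an annotated exon of PRKG1-AS1, an RNA of the opposite strand. WNT5A has a second RefSeq start, whose window also held 0 matches but lies within an annotated WNT5A exon. RefSeq windows were at hand for 30 of the 43 members, 36 windows in all, and 1 window (2.78%) held a match, against 11.96% of the 35116 windows of all genes. The windows shown were 62.8% and 64.4% G or C. A match is a description of the letters only, and which start these cells used was not measured.

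Of the 43 members, 8 had 0 counts in every library: the ligands WNT1, WNT3A, WNT6, WNT7A and WNT9A, the receptors FZD9 and FZD10, and the antagonist WIF1. Another 4 had fewer than 10 counts in all (WNT2, WNT4, ROR2 and RNF43). Of the 31 with at least 10 counts, 27 passed the filter on low counts and were tested, and WNT10A, WNT11, WNT16 and SFRP1 did not. LRP5 and SFRP4 passed it only through the abemaciclib libraries and DKK2 only through the untreated ones, which bears on the antagonists below. By edgeR's quasi-likelihood test with Benjamini-Hochberg adjustment over all genes, 11 members were higher and 12 lower after abemaciclib at an adjusted p under 0.05, and 4 were not past it. That is 85.2% of the tested members, where 77.3% of all 17207 genes tested passed (38% higher, 39.3% lower). Among them 5 rose and 8 fell by 2-fold or more, 48.1% of the tested members against 31.2% of all genes (13.8% higher, 17.4% lower). The members were chosen with earlier results of these data known. These shares, and that of the antagonists below, are therefore descriptions and not a test of the class. In 26 of the 27 tested members the treated and untreated values were apart, against 87.9% of all genes. On the log2 scale the tested members had a median change of 0.13 and all genes one of -0.01, so the class had no common direction. In bulk RNA such as this, fewer cells of a type and less RNA per cell cannot be told apart.

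**Figure D1:**
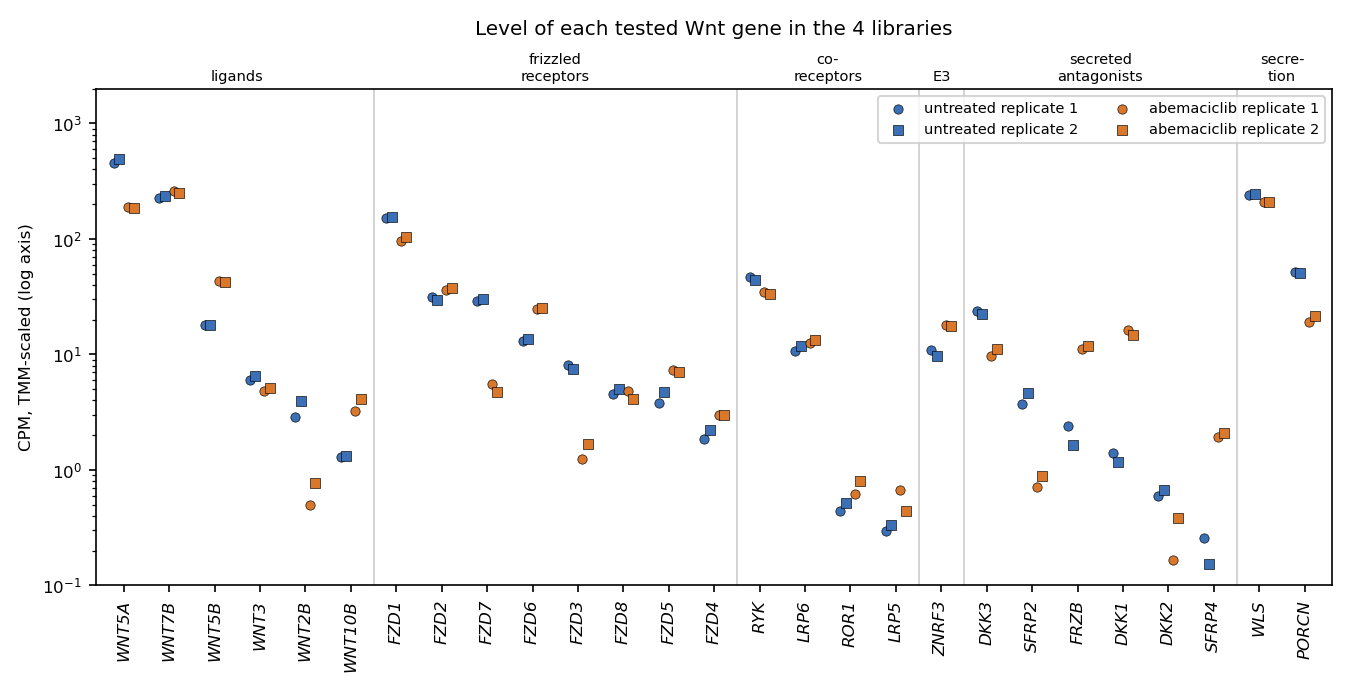
Level in CPM (TMM-scaled counts scaled to library size, log axis) of each of the 27 tested Wnt genes in each of the 4 libraries, ordered by role and by untreated level (E3, the ligase ZNRF3). The untreated libraries (blue) and the abemaciclib libraries (orange) are apart for every gene shown except FZD8, and WNT5A, WNT7B, FZD1 and WLS are the genes near or above 100 CPM.

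WNT5A and WNT7B held most of the summed ligand level in both groups. WNT5A (ENSG00000114251, GRCh38 chromosome 3, 55465715 to 55490539) stood at 458 and 491 CPM in the untreated libraries and at 187 and 185 CPM after abemaciclib. Both treated libraries were far below both untreated ones, by a log2 difference of -1.35 ± 0.03 (SE, edgeR adjusted p = 4.93e-25), which 12.7% of all genes exceeded in the same direction. WNT7B, which can signal through beta-catenin (ENSG00000188064, chromosome 22, 45920362 to 45977129), was at 225 and 237 CPM untreated and 258 and 249 CPM after the drug. Its groups were apart by little, and the rise was 1.10-fold (log2 0.13 ± 0.03, edgeR adjusted p = 7.13e-04, and 0.13 to 0.19 over the other scalings). WNT5B, the paralogue of WNT5A (ENSG00000111186, chromosome 12, 1529891 to 1647243), moved the opposite way, from 18.1 and 18.1 CPM to 42.9 and 42.4 CPM (log2 1.24 ± 0.06, edgeR adjusted p = 1.28e-17). The coordinates and exons are those of GENCODE release 29.

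Among the scarcer ligands, WNT10B was at 1.296 and 1.31 CPM untreated and 3.24 and 4.07 CPM after the drug (log2 1.50 ± 0.22, edgeR adjusted p = 5.39e-07). WNT2B fell from 2.85 and 3.94 CPM to 0.498 and 0.768 CPM (-2.38 ± 0.28, edgeR adjusted p = 6.01e-09), with no overlap of the groups. WNT2B shares 2661 of its 12561 exon bases with ST7L on the opposite strand, which was at 12.4 and 14.1 CPM untreated and 15.5 and 17.6 CPM after the drug. No source used here says whether the counting used strand, so reads of opposite-strand partners cannot be told apart from the member's own. WNT3 went from 6.04 and 6.45 CPM to 4.78 and 5.14 CPM, a small fall (-0.33 ± 0.14, edgeR adjusted p = 0.0303). The call of WNT3 was close to the threshold. It was lost without untreated replicate 2, without abemaciclib replicate 1 and without abemaciclib replicate 2. The log2 fold change of WNT3 stayed between -0.38 and -0.27 when 1 library at a time was left out. WNT10A fell out of detection, with 24 counts untreated and 0 after abemaciclib. It was 7.76-fold lower if the treated pair together is put at 3 counts and the 24 untreated counts are taken as exact. WNT11 had 18 counts and 1 count (17.5-fold lower, 95% counting interval 2.76 to 728), and WNT16 had 1 count untreated and 10 after the drug (10.3-fold higher, 1.47 to 447). WNT2 had 1 count and WNT4 had 3 counts over all libraries.

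To compare levels between genes, CPM was divided by the length of all annotated exons (CPM per kb). On that scale the untreated order was WNT5A (64.1), WNT7B (45.8), WNT5B (4.20), WNT3 (1.44), WNT10B (0.496) and WNT2B (0.270), and after the drug it was WNT7B (50.2), WNT5A (25.2), WNT5B (9.90), WNT10B (1.39), WNT3 (1.14) and WNT2B (0.0504). No neighbours in either order overlapped between their libraries on this length, and WNT5A and WNT7B changed places. With the longest annotated transcript as length, WNT5B stood at 7.86 CPM per kb untreated and 18.5 after the drug. WNT10B (1.42 and 1.79 CPM per kb) and WNT3 (1.42 and 1.53) then overlapped after the drug. The ratio of WNT5A to WNT7B per length was 1.39 and 1.41 untreated and 0.495 and 0.507 after the drug. The ratio of WNT5A to WNT5B was 14.7 and 15.8 untreated and 2.54 in each abemaciclib library, or 9.44 and 10.1 and then 1.63 in each with the longest transcript as length. Of the summed level of the 16 ligands, WNT5A held 55.0% ± 0.311 untreated and 28.6% ± 0.157 after the drug (SD, n = 2). WNT7B held 39.3% ± 0.246 and 57.1% ± 0.649, and WNT5B 3.61% ± 0.150 and 11.3% ± 0.0532. The sum itself was 113 and 120.1 CPM per kb untreated and 88.8 and 87.1 CPM per kb after the drug. The sums and shares are given as descriptions, with no test of their own.

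**Figure D2:**
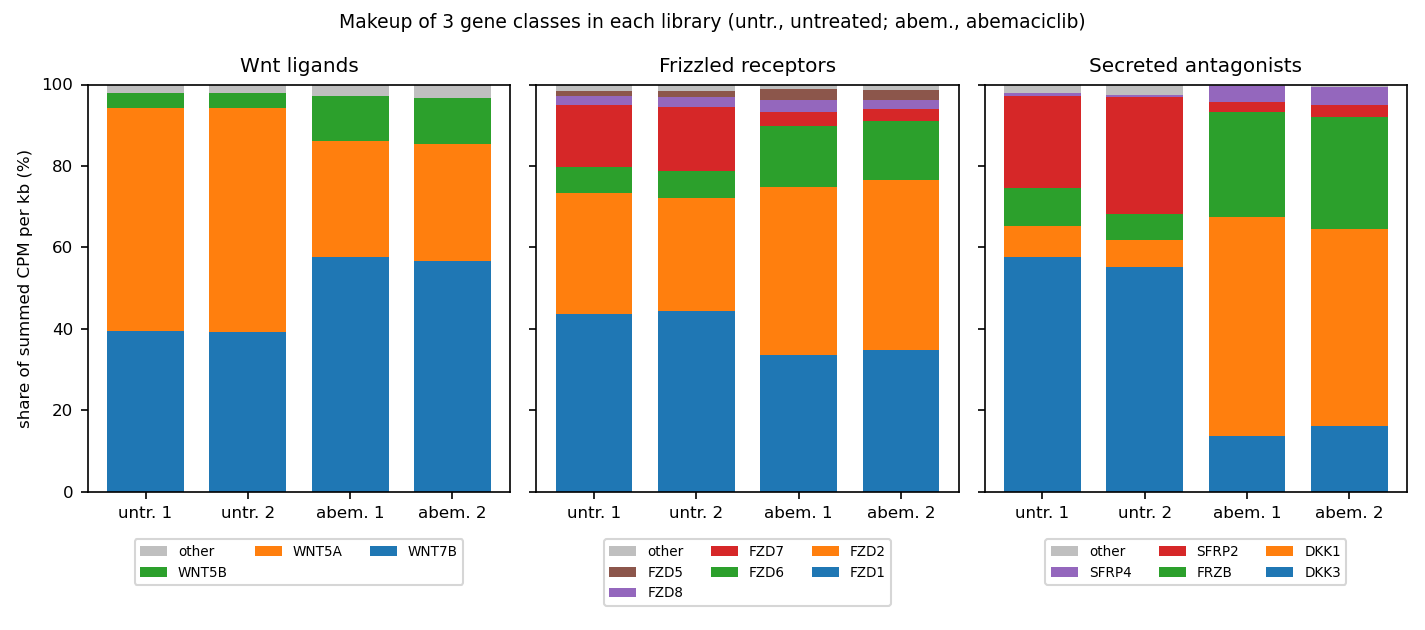
Share (%) of the summed CPM per kb that each gene held in each library, for the 16 ligands, the 10 frizzleds and the 8 secreted antagonists; genes under 2% in every library are joined as other. WNT5A gives way to WNT7B and WNT5B among the ligands, FZD7 narrows from 15.0% and 15.6% to 3.51% and 2.86% among the frizzleds, and DKK1 and FRZB widen while DKK3 and SFRP2 narrow among the antagonists.

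Among the frizzled receptors, 8 were tested, of which 4 were higher and 3 lower, FZD8 did not pass the threshold, and close relatives went different ways. FZD7 (ENSG00000155760, chromosome 2, 202034587 to 202038445) was at 28.8 and 30.3 CPM untreated and 5.57 and 4.69 CPM after abemaciclib. That is a 5.83-fold fall (log2 -2.54 ± 0.10, edgeR adjusted p = 4.02e-21), the furthest of any tested member in the downward direction, and 4.78% of all genes fell further. FZD1, of the same subfamily as FZD2 and FZD7 (ENSG00000157240, chromosome 7, 91264364 to 91271326), fell from 151 and 155 CPM to 96.0 and 103 CPM (-0.62 ± 0.04, edgeR adjusted p = 1.13e-15). FZD2 (ENSG00000180340, chromosome 17, 44557459 to 44559570) rose a little, from 31.2 and 29.7 CPM to 35.9 and 37.5 CPM (0.27 ± 0.06, edgeR adjusted p = 1.25e-04). The levels of FZD2 and FZD7 thus moved further apart. Per length, the ratio of FZD2 to FZD7 was 1.98 and 1.79 untreated and 11.8 and 14.6 after the drug.

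FZD3 and FZD6, the members of another subfamily, also parted. FZD3 (ENSG00000104290, chromosome 8, 28494205 to 28574268) went from 8.11 and 7.49 CPM to 1.25 and 1.68 CPM (-2.38 ± 0.18, edgeR adjusted p = 1.46e-13). FZD6 (ENSG00000164930, chromosome 8, 103298433 to 103332866) went from 13.1 and 13.7 CPM to 24.8 and 25.1 CPM (0.89 ± 0.08, edgeR adjusted p = 6.58e-12). Neither gene's groups overlapped. FZD6 shares 138 exon bases with the opposite-strand RNA BAALC-AS1, which was at 3.85 and 3.30 CPM untreated and 8.56 and 9.71 CPM after the drug. In the pair FZD5 and FZD8, FZD5 rose from 3.81 and 4.74 CPM to 7.31 and 6.997 CPM (0.73 ± 0.14, edgeR adjusted p = 2.88e-05). FZD8 was at 4.52 and 4.98 CPM and then 4.78 and 4.10 CPM, overlapping values (log2 difference -0.11 ± 0.15, edgeR adjusted p = 0.516). FZD4, the norrin receptor, went from 1.85 and 2.23 CPM to 2.99 and 3.01 CPM (0.55 ± 0.21, edgeR adjusted p = 0.0201). The call of FZD4 was lost without untreated replicate 1 (adjusted p = 0.122) and without abemaciclib replicate 2 (0.0627). FZD4 shares 1399 of its 7383 exon bases with PRSS23 on the opposite strand, which was at 50.4 and 48.8 CPM untreated and 131 and 132 CPM after the drug.

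Per length, the untreated order of the frizzleds was FZD1 (22.0 CPM per kb), FZD2 (14.4), FZD7 (7.66), FZD6 (3.30), FZD8 (1.18), FZD5 (0.637), FZD3 (0.566) and FZD4 (0.276), where FZD5 and FZD3 overlapped between libraries. After abemaciclib it was FZD2 (17.4), FZD1 (14.3), FZD6 (6.14), FZD7 (1.33), FZD8 (1.10), FZD5 (1.07), FZD4 (0.406) and FZD3 (0.106), where FZD8 and FZD5 overlapped. FZD1 and FZD2 together held most of the frizzled sum in both groups: 43.9% and 28.8% untreated, and 34.2% and 41.5% after the drug, as means of 2 libraries. The sum over the 10 frizzleds was 49.6 and 50.3 CPM per kb untreated and 41.1 and 42.5 CPM per kb after the drug.

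Of the 5 co-receptors, 1 passed the threshold. RYK, a Wnt receptor with an inactive kinase domain (ENSG00000163785, chromosome 3, 134065303 to 134250744), fell from 46.8 and 43.8 CPM to 35.0 and 33.4 CPM (log2 -0.40 ± 0.06, edgeR adjusted p = 1.11e-07). LRP6 was at 10.8 and 11.9 CPM untreated and 12.7 and 13.3 CPM after the drug (0.19 ± 0.10, edgeR adjusted p = 0.0748), and its adjusted p was 0.0466 without untreated replicate 2. LRP5, the paralogue of LRP6, had between 8 and 16 counts per library, and differed by 0.76 ± 0.47 on the log2 scale (edgeR adjusted p = 0.14). Per length LRP6 was 21.8 and 21.1 times LRP5 untreated and 11.4 and 17.8 times after the drug. ROR1, a receptor for WNT5A, had between 12 and 27 counts per library (0.57 ± 0.40, edgeR adjusted p = 0.2), and ROR2 had 1 count in all. At this depth changes of the size measured for LRP5 and ROR1 could not be told from no change. Per length the order was RYK (5.63 CPM per kb untreated, 4.25 after the drug, or 8.59 and 6.49 with the longest transcript as length), LRP6 (1.10 and 1.25), ROR1 (0.0718 and 0.106) and LRP5 (0.0513 and 0.0898), with ROR1 and LRP5 overlapping after the drug.

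Of the ligases that remove frizzleds, ZNRF3 (ENSG00000183579, chromosome 22, 28883592 to 29057487) rose from 10.9 and 9.66 CPM to 17.8 and 17.6 CPM (log2 0.79 ± 0.09, edgeR adjusted p = 5.02e-09). Its paralogue RNF43 had 8 counts untreated and 0 after the drug, or 2.59-fold lower on the same assumptions as for WNT10A. RNF43 shares exon bases with 3 annotated genes, so its few counts are uncertain. Of its 7505 exon bases, 4326 are shared with AC004687.2 and 143 with SUPT4H1 on the same strand, and 1521 with TSPOAP1-AS1 on the opposite strand.

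All 6 tested antagonists changed at least 2-fold, 3 in each direction, where 31.2% of all genes tested did. For SFRP4 and DKK2, which passed the filter only through the group where they were higher, the difference was in part a condition of being tested. DKK1, which blocks LRP5 and LRP6 (ENSG00000107984, chromosome 10, 52314296 to 52318042), was at 1.41 and 1.16 CPM in the untreated libraries and at 16.3 and 14.7 CPM after abemaciclib. The groups were far apart, with a 12.1-fold rise (log2 3.59 ± 0.15, edgeR adjusted p = 6.13e-20), which 1.12% of all genes exceeded. This is the gene whose promoter window with 2 TCF/LEF matches is printed above. It shares 212 of its 2206 exon bases with the opposite-strand RNA PRKG1-AS1, which was at 0.111 and 0.0611 CPM untreated and 0.706 and 0.650 CPM after the drug. FRZB, a secreted protein that resembles the ligand-binding part of a frizzled (ENSG00000162998, chromosome 2, 182833275 to 182867162), rose from 2.41 and 1.65 CPM to 11.2 and 11.9 CPM (2.53 ± 0.15, edgeR adjusted p = 1.00e-15). SFRP4, of the same class (ENSG00000106483, chromosome 7, 37905932 to 38025695), had 7 and 5 counts untreated and 46 and 71 after the drug, or 0.259 and 0.153 CPM against 1.91 and 2.10 CPM (3.29 ± 0.39, edgeR adjusted p = 7.63e-09).

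SFRP2 (ENSG00000145423, chromosome 4, 153780592 to 153789120) went the other way, from 3.70 and 4.68 CPM to 0.706 and 0.886 CPM (log2 -2.37 ± 0.24, edgeR adjusted p = 2.88e-10). DKK3, a member of the DKK family that does not act on LRP6 as DKK1 does (ENSG00000050165, chromosome 11, 11963106 to 12009769), fell from 23.7 and 22.5 CPM to 9.60 and 11.2 CPM (-1.14 ± 0.09, edgeR adjusted p = 4.02e-13). DKK2 had 16 and 22 counts untreated and 4 and 13 after the drug (-1.12 ± 0.47, edgeR adjusted p = 0.0320). Its call was lost without untreated replicate 1 (adjusted p = 0.0895), without untreated replicate 2 (0.189) and without abemaciclib replicate 1 (0.279), where its log2 fold change was -0.71, and the log2 fold change was -1.90 without abemaciclib replicate 2. SFRP1 had 12 counts untreated and 2 after the drug (5.82-fold lower, counting interval 1.296 to 53.6).

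The summed level of the antagonists was 8.15 and 8.04 CPM per kb untreated and 13.7 CPM per kb in each abemaciclib library, and their makeup differed between the groups. DKK3 held 56.4% ± 1.64 of that sum untreated and 14.9% ± 1.58 after the drug (SD, n = 2), and SFRP2 25.5% ± 4.44 and 2.85% ± 0.453. DKK1 went from 7.19% ± 0.901 to 51.1% ± 3.71 and FRZB from 7.91% ± 2.01 to 26.6% ± 1.17. Per length the untreated order was DKK3 (4.57 CPM per kb), SFRP2 (2.06), FRZB (0.642), DKK1 (0.582), DKK2 (0.146) and SFRP4 (0.0571), with FRZB and DKK1 overlapping. After the drug it was DKK1 (7.02), FRZB (3.65), DKK3 (2.05), SFRP4 (0.556), SFRP2 (0.392) and DKK2 (0.0637), with no overlap of neighbours. With the longest transcript as length the sum was 12.6 and 12.2 CPM per kb untreated and 17.3 and 17.4 after the drug. DKK3 then held 70.1% untreated and 22.5% after the drug, SFRP2 16.6% and 2.25%, FRZB 5.15% and 21.0%, and DKK1 5.77% and 49.8%. On that length DKK3 stood at 8.72 CPM per kb untreated and 3.92 after the drug, where its libraries (3.62 and 4.21) overlapped those of FRZB (3.53 and 3.76), so the order of DKK3 and FRZB after the drug depends on the length.

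Both secretion genes fell, by different amounts. PORCN (ENSG00000102312, chromosome X, 48508962 to 48520814) was at 51.4 and 51.1 CPM untreated and 19.1 and 21.6 CPM after abemaciclib, a 2.50-fold fall (log2 -1.32 ± 0.06, edgeR adjusted p = 1.08e-18). WLS (ENSG00000116729, chromosome 1, 68098473 to 68233120) was at 240.2 and 246 CPM and then 209.5 and 208 CPM, a fall of 1.16-fold (-0.22 ± 0.03, edgeR adjusted p = 2.67e-07). Per length WLS stood at 54.4 CPM per kb untreated and PORCN at 17.0, or at 88.5 and 24.3 with the longest transcript as length.

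**Figure D3:**
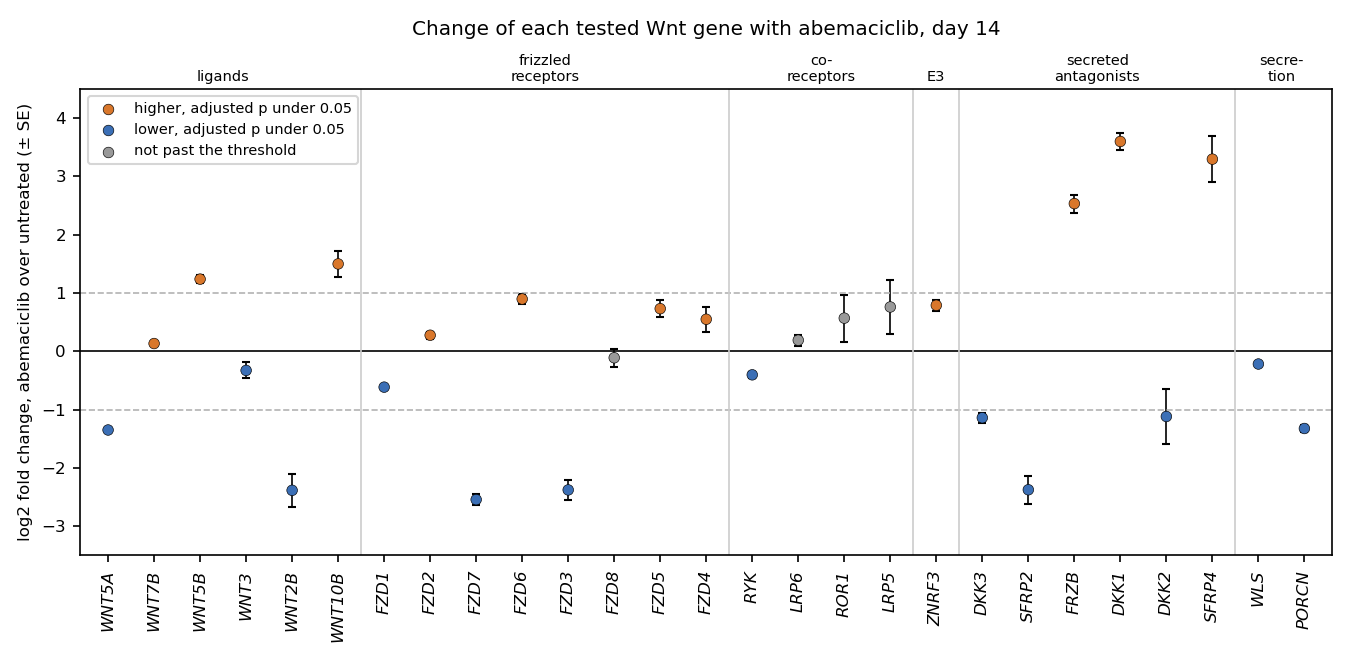
Log2 fold change of each of the 27 tested Wnt genes (abemaciclib over untreated, points) with its standard error (bars, from edgeR with 2 libraries per group); dashed lines mark 2-fold and E3 marks the ligase ZNRF3. DKK1 (3.59), SFRP4 (3.29) and FRZB (2.53) lie highest, and FZD7 (-2.54), WNT2B (-2.38), FZD3 (-2.38) and SFRP2 (-2.37) lowest.

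**Figure D4:**
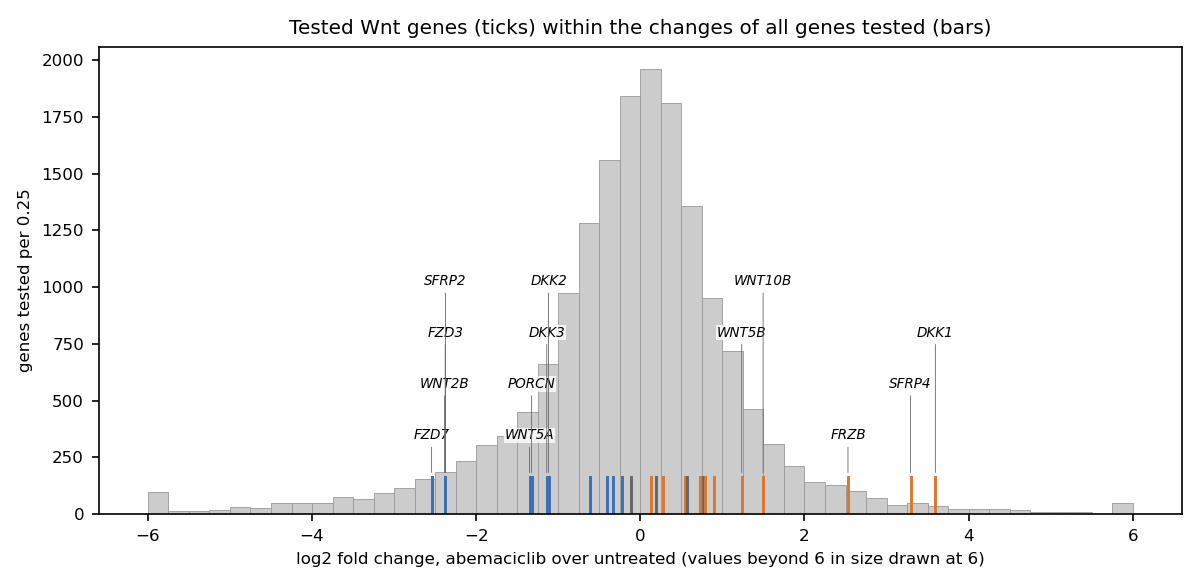
Histogram of the log2 fold changes of all 17207 genes tested (bars of 0.25, values beyond the ends drawn in the end bars), with a tick for each of the 27 tested Wnt genes, orange where higher, blue where lower and grey where not past the threshold; the names mark the 13 members changed at least 2-fold. The ticks lie on both sides of 0, with the rises of DKK1, SFRP4 and FRZB in the sparse upper range.

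The rest of the pathway was described from 6 further lists, of which the list of target genes contains 3 of the members. Their counts stand beside 38% of all genes tested higher and 39.3% lower. Of 25 further modulators at the cell surface 13 were tested, with 4 higher and 8 lower (median log2 fold change -0.41). RSPO3, a secreted amplifier that keeps ZNRF3 and RNF43 from frizzleds, rose from 33.2 and 38.1 CPM to 90.3 and 87.6 CPM (1.31 ± 0.05, edgeR adjusted p = 1.56e-18). TSPAN12, a partner of FZD4, rose by 1.46 ± 0.29. NOTUM, an enzyme that strips the lipid from Wnt proteins, fell from 11.2 and 11.1 CPM to 0.249 and 0.266 CPM (-5.41 ± 0.22, edgeR adjusted p = 2.93e-20), and it passed the filter on low counts only through the untreated libraries. KREMEN1, which acts with DKK1 on LRP6, fell from 89.2 and 86.9 CPM to 30.7 and 32.5 CPM (-1.47 ± 0.05, edgeR adjusted p = 5.72e-23), and the glypican GPC6 fell by 0.41 on the log2 scale. ADGRA2 and RECK, which together serve WNT7 ligands and were chosen after their values were seen, had log2 fold changes of -3.36 ± 0.11 and 0.40 ± 0.07. LGR4, a receptor of R-spondins chosen the same way, was at 30.5 and 26.6 CPM and then 27.8 and 25.1 CPM (edgeR adjusted p = 0.16).

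Of 28 tested transducers between Dishevelled and beta-catenin 8 were higher and 17 lower (median -0.23). The kinase CSNK1E fell from 588 and 603 CPM to 144 and 142 CPM (-2.06 ± 0.03) and CSNK1D by 0.51 on the log2 scale, while beta-catenin itself, CTNNB1, had a log2 fold change of 0.25 ± 0.03. APC, the scaffold of the complex that degrades beta-catenin, rose by 0.98 ± 0.09. FRAT1, a GSK3 inhibitor, had 52 counts untreated and 1 after the drug (50.5-fold lower, counting interval 8.66 to 2031), and passed the filter only through the untreated libraries. Of 16 tested nuclear factors 6 were higher and 8 lower (median -0.12). TCF7 (2.72 ± 0.05) rose furthest, the corepressor TLE2 (-5.04 ± 0.15) fell furthest, and the other abundant ones were TLE5 (-0.84 ± 0.03) and BCL9L (-0.04 ± 0.03, edgeR adjusted p = 0.258). TCF7L2, the factor named in the title, was at 14.4 and 14.2 CPM untreated and 6.52 and 7.11 CPM after the drug (-1.06 ± 0.10, edgeR adjusted p = 1.18e-10), and GSK3B rose by 0.22 ± 0.05 (edgeR adjusted p = 2.27e-04); both were chosen after their values were seen. The other named genes of these 2 lists had edgeR adjusted p values of 2.36e-07 or less.

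Of 23 tested feedback and common target genes of beta-catenin 10 were higher and 11 lower (median -0.13). DKK1, itself a known target, rose furthest and NOTUM, another, fell furthest. The most abundant were CCND1 (1.66 ± 0.03), CD44 (-1.48 ± 0.03) and JUN (-0.71 ± 0.03). AXIN2, the most used readout of beta-catenin activity, chosen after its values were seen, was at 13.4 and 11.98 CPM untreated and 16.9 and 19.0 CPM after the drug (0.52 ± 0.09, edgeR adjusted p = 6.91e-06). CD44 and TCF7L2 are named in the series title and may have been picked from these libraries, so their direction is not independent evidence. Of 28 tested genes of planar cell polarity and other routes without beta-catenin 12 were higher and 9 lower (median -0.01). DAAM2 rose from 2.00 and 1.74 CPM to 10.9 and 11.7 CPM (2.60 ± 0.15), NFATC4 fell from 358 and 360.2 CPM to 69.6 and 68.5 CPM (-2.38 ± 0.03), and RHOA (-0.06 ± 0.03) and RAC1 (-0.02 ± 0.04) were not past the threshold (edgeR adjusted p = 0.0528 and 0.572).

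Of 15 tested genes listed for the handling of Wnt cargo and its lipid, 11 were higher and 2 lower (median 0.41). SCD, which makes the unsaturated fatty acid that PORCN attaches to Wnt proteins, was at 1996 and 1965 CPM untreated and 3569 and 3638 CPM after the drug (0.86 ± 0.03, edgeR adjusted p = 4.44e-22). The cargo receptors TMED10 (0.29 ± 0.03) and TMED3 (0.41 ± 0.03) and the acyltransferase HHAT (1.38 ± 0.09) rose, and MBOAT2 fell (-0.45 ± 0.05), each with an edgeR adjusted p of 5.12e-09 or less. HHAT and MBOAT2 are acyltransferases other than PORCN, so their changes are not read as changes of Wnt lipid attachment.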

How the data were processed

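Expected counts per gene were deposited for each of the 4 libraries, per the file headers, without scaling for depth or length. Per the labels' protocols the libraries were stranded and poly-A selected. The aligner STAR (2.7.2b), the counter RSEM (1.3.1) and build GRCh38 are listed in the submitters' processing notes. The annotation and strand setting of the counting are not given in the sources used here. Between 6.13% and 6.70% of values per library were not whole and were rounded. Groups came from sample titles. Replicates differed beyond sampling noise (chi-square per degree of freedom 3.56 untreated and 1.95 abemaciclib, over genes with 20 or more counts in both libraries together), so none was treated as a second deposit of another.

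All genes were tested together with edgeR 4.0.16 (R 4.3.3): filterByExpr with a minimum count of 10, TMM scaling, robust quasi-likelihood F test of group, two-sided, Benjamini-Hochberg adjustment over 17207 genes. The standard error is the log2 fold change divided by the square root of F. CPM values are TMM-scaled. Exon lengths and positions came from GENCODE 29, matched by identifier for 96.4% of genes and all 43 members, and promoters from RefSeq. Counting intervals (95%, Clopper-Pearson) and floors cover counting error only, since the reads carry no molecular identifiers. The fit was tested on simulated data in which few genes changed, whereas 77.3% of all genes tested passed the threshold here. That simulation cannot check the calls where most genes change.

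The members and lists were chosen with earlier results of these data known. Every member was described; of each further list the text names the largest rise and fall past the threshold and the 3 tested genes with the highest mean CPM, and says where a gene was chosen otherwise. GPR177, an older name of WLS in the cargo list, matched no gene. Alternatives were other scalings, no filter, DESeq2 1.42.0, a replicate block, leaving out each library and, for levels, transcript length.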

Additional observations from a re-analysis of the deposited data

How the results depend on the processing

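Under 10 alternatives of the test, 22 of the 27 tested members kept their direction and side of the threshold, and 0 of 270 member values changed sign where a call was made. The others were WNT3, FZD4, LRP6 and DKK2, which changed side, and FZD8, which changed sign. With DESeq2 the adjusted p was 0.196 for WNT3, 0.130 for FZD4 and 0.201 for DKK2. With low-count genes kept it was 0.0581 for WNT3 and 0.0653 for DKK2, and with library totals as scaling 0.0679 for WNT3 and 0.0236 for LRP6. The cause was not tested. FZD8, not past the threshold, had a log2 fold change of -0.11 with all libraries and 0.01 without abemaciclib replicate 2. With all libraries, 46 of the 116 other pathway genes tested were higher and 53 lower. Leaving out 1 library at a time applied the filter on low counts anew, which left 17655 to 18126 genes tested against 17207. Members outside the 27 could thus enter, so counts of calls are not given for these fits. Over them the log2 fold change was 3.45 to 3.73 for DKK1, -2.64 to -2.40 for FZD7 and -1.90 to -0.71 for DKK2. With 1 library left in a group, that library is assumed to vary like the others. Other scalings moved the median of all genes by at most 0.05 (log2), with mitochondrially encoded genes left out by 0.001.

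Replicate numbers were tried as a replicate block, which left 11 members higher and 12 lower and called 13108 of all genes against 13299. Deviations of same-numbered libraries correlated at -2e-04 over genes, so the numbers were not taken to pair the samples. With the longest transcript as length, WNT5A held 52.3% of the ligand sum untreated and 25.8% after the drug, WNT7B 40.2% and 55.5%, and WNT5B 5.36% and 15.9%. Few counts limit what can be said of WNT2, WNT4, ROR2, RNF43, WNT10A, WNT11, WNT16, SFRP1, LRP5, ROR1 and DKK2.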
